A study of Mus musculus with 12 samples.

Results

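The TGF-beta ligands, receptors and SMADs were followed as 9 genes, Tgfb1, Tgfb2, Tgfb3, Tgfbr1, Tgfbr2, Smad2, Smad3, Smad4 and Smad7. They were taken by gene symbol from a table of 34745 mouse genes, and all 9 had reads in every library and passed the filter on low counts in every comparison. RNA was measured by poly(A) sequencing in 12 libraries of MLE-12, a mouse lung epithelial line transformed with a viral T antigen and used as a model of alveolar type II (AT II) cells. The study used it to model bronchopulmonary dysplasia, a lung disease of preterm infants, and asked what exosomes from M2 macrophages (M2-Exo) change in injured cells. All libraries came from this 1 line, and none was left uninjured.

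Each of the 4 groups held 3 libraries labelled 24 h. The LPS group received 100 ng/mL lipopolysaccharide, a bacterial cell wall component, in 21% oxygen. The hyperoxia group (Hyp) was kept in 85% oxygen without LPS. In LPS + M2-Exo and Hyp + M2-Exo, exosomes were added after the same injury to a final 10 µg/mL. They came from IL-4-treated MH-S cells, a mouse alveolar macrophage line. The sources used here do not say whether the libraries of a group came from separate cultures, so p-values measure only the spread between these libraries, which may be technical.

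TGF-beta ligands are secreted in a latent form, held by latency proteins in the matrix, and freed by integrins and proteases. The active ligand binds the type II receptor TGFBR2, which phosphorylates the type I receptor TGFBR1, and this kinase phosphorylates SMAD2 and SMAD3. These join SMAD4 and enter the nucleus, where SMAD7 is among the genes they induce and blocks the receptor in return. In the lung the pathway takes part in alveolar growth, epithelial injury and fibrosis.

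Total counts per library ranged from 18700207 to 19185116 in LPS, 16021833 to 18505941 in LPS + M2-Exo, 22035335 to 24074616 in Hyp and 20231632 to 23414010 in Hyp + M2-Exo. The smallest count of any of the 9 genes was 366 reads, for Tgfb3 in 1 Hyp library, and counting error is part of the spread between libraries. Of 10 AT II markers, Sftpc, the surfactant protein C gene, stood at 27 ± 1.14 FPKM (reads scaled to gene length and library total, mean ± SD, n = 3) in LPS and 14.5 ± 1.04 in Hyp, while Sftpa1 and Sftpd were at or near 0 in all 4 groups. Nkx2-1 was also lower in Hyp (12.6 FPKM, against 51.8 in LPS), while Sftpb (1.55 against 0.472) and Etv5 (7.45 against 4.94) were higher. Of 5 epithelial markers, the keratin gene Krt8 stood at 77.4 to 84.4 FPKM as a group mean. Cdh1, the E-cadherin gene, stood at 2.89 FPKM in LPS and 0.642 in Hyp, Epcam and Krt18 were below 0.5 FPKM in every group mean, and Cldn7 was at 0.

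The order of the transcript levels, in FPKM and so per length, differed between the injuries. In LPS, Tgfbr2 led with 104 ± 2.39 FPKM (SD, n = 3), followed by Smad4 (27.3 ± 0.392), Tgfb3 (25 ± 0.237), Smad3 (22.3 ± 0.926), Tgfb2 (21.2 ± 0.635), Smad2 (11 ± 0.618), Tgfb1 (8.4 ± 0.137), Smad7 (4.22 ± 0.531) and Tgfbr1 (3.63 ± 0.288). In this group the ranges over libraries overlapped for 1 pair of neighbours, Smad7 and Tgfbr1. In Hyp, Tgfbr2 (26.2 ± 0.33 FPKM) and Smad4 (24.3 ± 1.01) also led. Tgfb3 (5.11 ± 0.27) stood in place 7, against place 3 in LPS, and below Tgfb1 (7.82 ± 0.441). The ranges of Smad3 and Smad2 overlapped in Hyp, where these 2 genes stood side by side. With M2-Exo, the ranges of Tgfb2 and Smad3 overlapped in the LPS libraries. In Hyp + M2-Exo, those of Tgfbr2 and Smad4, of Smad2 and Smad3, and of Smad3 and Tgfb2 overlapped.

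**Figure D1:**
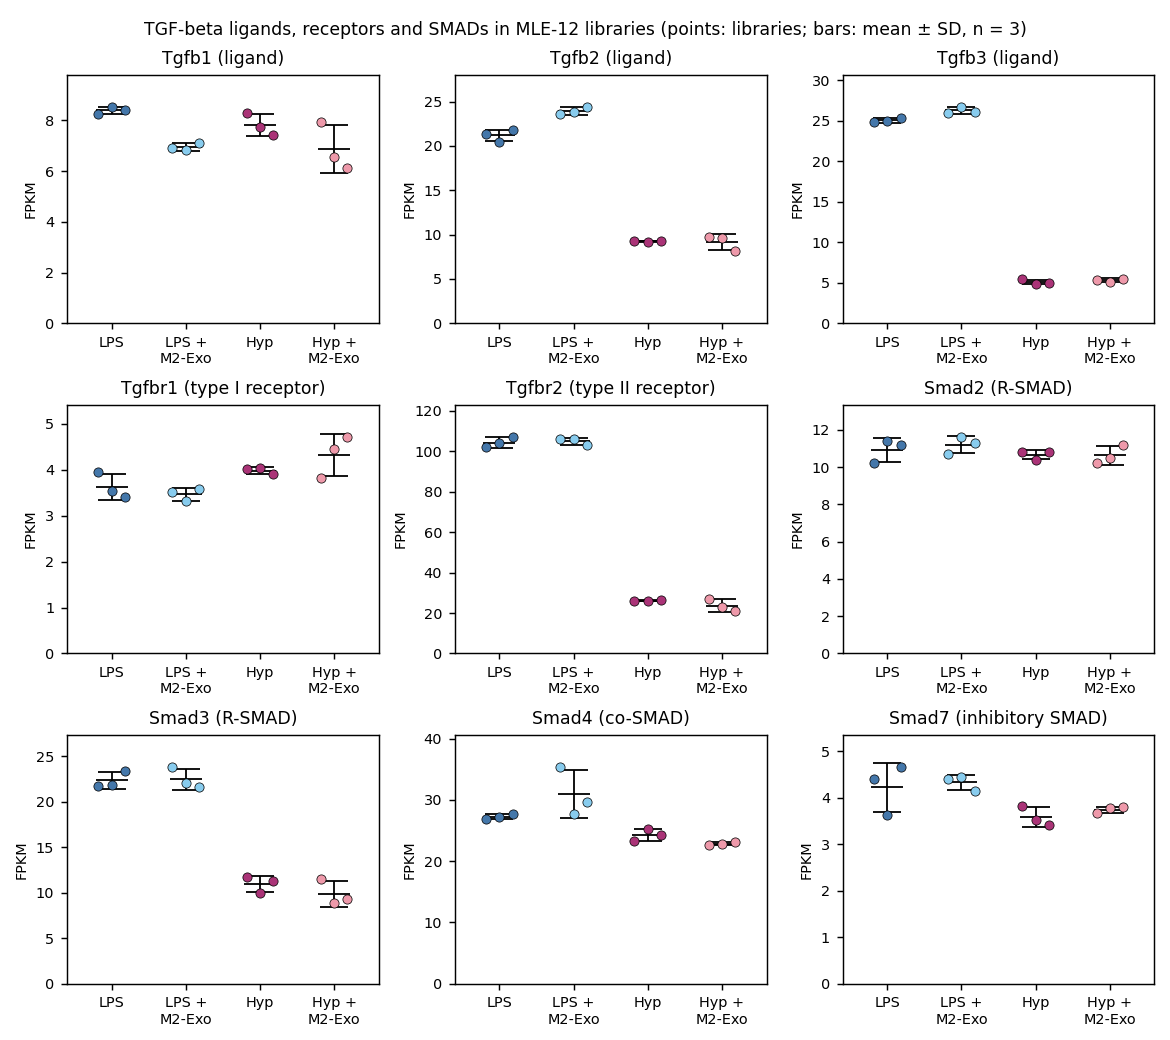
FPKM (vertical axis, from 0, a separate scale for each gene) of the 9 genes in each of the 12 libraries. Points are libraries in replicate order, bars the mean ± SD of 3. Tgfb2, Tgfb3, Tgfbr2, Smad3 and, by a small gap, Smad4 sit lower in all 6 hyperoxia libraries than in all 6 LPS libraries. Over all genes tested, 75.8% were called between Hyp and LPS (edgeR adjusted p under 0.05), and the share that separates in this way is not given here. The ranges of Tgfb1, Tgfbr1, Smad2 and Smad7 over these 6 and 6 libraries overlap in FPKM.

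The comparison of Hyp with LPS addressed how the pathway's RNA differed between the 2 injuries. Of the 9 genes, 7 were lower in Hyp and 0 higher at an adjusted p under 0.05 (edgeR quasi-likelihood F test, Benjamini-Hochberg over all genes tested). Over all 13805 genes tested, 75.8% were called, 37.8% as lower and 38% as higher, so most genes differed between these injuries. The share of all genes whose libraries do not overlap is not given here, so a gap between groups is not read as particular to a member. The size of the change set the members apart from each other. Tgfb3, Tgfbr2, Tgfb2 and Smad3 fell by more than 1 on the log2 scale, where 13.7% of all genes were called with such a fall, and the falls of Tgfb1, Smad4 and Smad7 were small. By the study's own rule, an unadjusted p under 0.05 and an absolute log2 fold change of 2 or more, Tgfb3 and Tgfbr2 were the 2 members called, against 7.68% of all genes. The study applied that rule to M2-Exo within each injury and reported no comparison between the injuries. Injury and any difference in handling or sequencing between the LPS and Hyp libraries cannot be told apart, since each injury had its own libraries and no uninjured cells were included. In such bulk samples fewer cells of a kind and less RNA per cell cannot be told apart either. Here and below, words such as fell or rose mean lower or higher in Hyp than in LPS. The direction of either injury from uninjured cells is unknown.

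For 3 of these 4 genes, the 250 bases before the RefSeq transcript start are shown (build GRCm38.p6, printed 5′ to 3′ on the gene's strand). The RNA of each was lower in Hyp than in LPS, and their starts can be set side by side. Capitals mark matches, on either strand, to a TATA box (TATAAA), a SMAD element (CAGAC), a GC box (GGGCGG) and a CCAAT box (CCAAT). Neither an AP-1 site (TGANTCA) nor a cAMP response element (TGACGTCA) was matched in the 250 bases before the starts of Tgfb1, Tgfb2, Tgfbr1, Tgfbr2 and Smad3. Both are rare, matched in 6.75% and 1.55% of 32851 promoters of the same length. The regions are chr1:186705990-186706239 for Tgfb2, chr9:116175364-116175613 for Tgfbr2 and chr9:63757995-63758244 for Smad3, all on the minus strand.
Tgfb2: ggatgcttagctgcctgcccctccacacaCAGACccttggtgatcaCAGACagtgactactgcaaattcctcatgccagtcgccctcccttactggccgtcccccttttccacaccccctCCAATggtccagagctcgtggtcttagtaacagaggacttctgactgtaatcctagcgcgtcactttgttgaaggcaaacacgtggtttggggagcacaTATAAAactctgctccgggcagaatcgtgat
Tgfbr2: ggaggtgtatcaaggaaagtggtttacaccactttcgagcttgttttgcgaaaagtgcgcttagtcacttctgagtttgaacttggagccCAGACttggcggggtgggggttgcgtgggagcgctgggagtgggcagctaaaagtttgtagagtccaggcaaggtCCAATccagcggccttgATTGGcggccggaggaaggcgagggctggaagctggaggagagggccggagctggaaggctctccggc
Smad3: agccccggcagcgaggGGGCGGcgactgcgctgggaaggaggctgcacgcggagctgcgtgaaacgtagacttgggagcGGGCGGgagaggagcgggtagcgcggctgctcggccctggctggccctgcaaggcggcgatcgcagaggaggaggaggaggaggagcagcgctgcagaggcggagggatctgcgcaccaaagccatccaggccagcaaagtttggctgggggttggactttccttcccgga
Tgfb2 had the TATA box, 31 bases before its start, which 12.4% of 32851 promoters of the same length held. Tgfb2 and Tgfbr2 both held the SMAD element, as did 42.2% of promoters, and also the CCAAT box, as did 33.8%. Smad3 held neither and had 2 GC boxes, found in 32.7% of promoters. The promoter of Tgfb1, whose RNA changed little, held 5 GC boxes and no TATA box. Tgfbr1, whose RNA was not called, held 2 GC boxes and 2 CCAAT boxes before its upstream start. Before a later start it held 1 SMAD element, and neither start had a TATA box. A match is a run of letters, and binding was not measured.

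Tgfb3, the ligand known for its part in palate fusion and lung branching, showed the widest gap of the 9 genes. Its level was 24.8, 25 and 25.3 FPKM in the 3 LPS libraries and 5.41, 4.91 and 5 FPKM in the 3 Hyp libraries. Every Hyp library lay far below every LPS library. Tgfb3 was 5.22-fold lower in Hyp (log2 fold change -2.38 ± 0.055, SE; edgeR adjusted p = 2.77e-08), and 2.96% of the genes tested fell as far. The gene lies at chr12:86056744-86079041 on the minus strand and overlaps Ttll5, a tubulin glutamylase gene on the other strand. The library kit does not mark strand, so reads of the 2 genes in the overlap cannot be told apart. Ttll5 had 572 to 703 counts in LPS and 603 to 714 in Hyp, a log2 fold change of -0.36 (edgeR adjusted p = 0.00523). Of the 50-base stretches of the Tgfb3 transcripts, 8.79% also occur in other annotated transcripts.

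Tgfb2, the ligand that mice need for heart and lung development, was lower in Hyp as well. It stood at 21.3, 20.5 and 21.8 FPKM in LPS and at 9.26, 9.15 and 9.32 FPKM in Hyp. The groups did not overlap, and the Hyp libraries lay within 0.2 FPKM of each other. The gene (chr1:186622792-186705989, minus strand) was 2.44-fold lower (log2 fold change -1.28 ± 0.036, SE; edgeR adjusted p = 5.83e-08). Tgfb1, the ligand best known for immune restraint and fibrosis, lies at chr7:25687002-25705077 on the plus strand and differed little between the injuries. Its values were 8.26, 8.53 and 8.42 FPKM in LPS and 8.28, 7.76 and 7.41 FPKM in Hyp. In FPKM, 1 Hyp library reached into the LPS range. In CPM (counts scaled to the library's size) the highest Hyp library, at 45.9, lay below the lowest LPS library, at 48.5. The log2 fold change was -0.19 ± 0.056 (SE; edgeR adjusted p = 0.0137), and this call was lost in 6 of 16 alternatives. Without Hyp replicate 3 the log2 fold change was -0.15 (adjusted p = 0.0565), with library size alone -0.10 (adjusted p = 0.117) and in the limma fits to FPKM -0.10 to -0.094 (adjusted p from 0.103 to 0.125). With all 12 libraries in the fit the edgeR adjusted p was 0.0514.

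The mix of ligand RNA therefore differed in proportion as well as in sum. The 3 ligands together stood at 54.6 ± 0.758 FPKM (SD, n = 3) in LPS and at 22.2 ± 0.689 in Hyp. Tgfb1 made up 15.4 ± 0.353% of the summed FPKM in LPS and 35.2 ± 1.02% in Hyp. Tgfb3 went the other way, with 45.8 ± 0.36% in LPS and 23 ± 0.542% in Hyp. The share of Tgfb2 lay between 37.9% and 42.9% in these 6 libraries. These shares rest on the lengths used for FPKM and are given as a description.

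**Figure D2:**
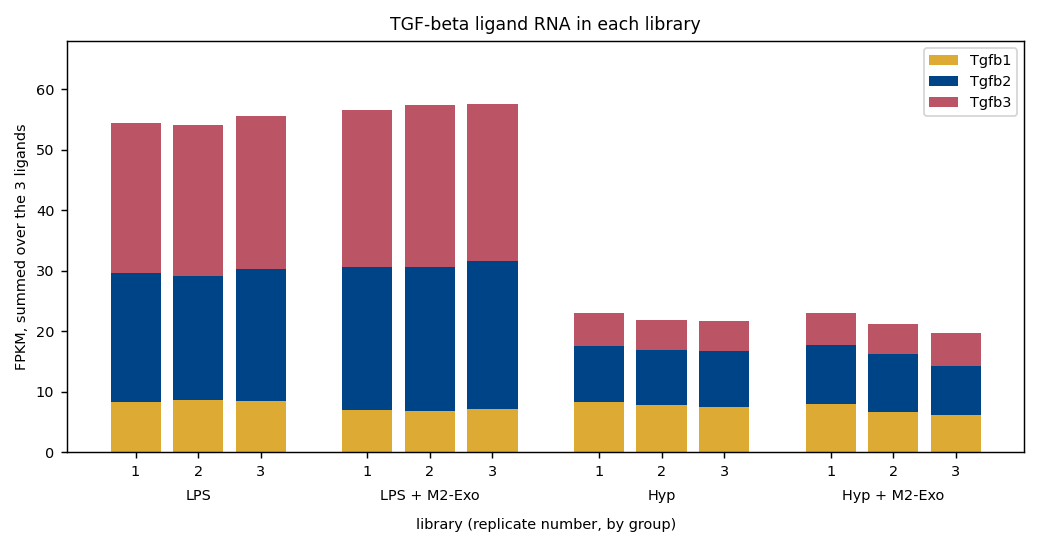
Summed FPKM of Tgfb1, Tgfb2 and Tgfb3 (vertical axis, from 0) in each library, with 1 bar per library and 1 colour per ligand. The bars of the 6 LPS-injured libraries reach 54 to 57.6 FPKM and those of the 6 hyperoxia libraries 19.7 to 23 FPKM, with the Tgfb1 segment of similar height in both.

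The receptors parted. Tgfbr2, the constitutively active type II kinase that binds ligand first, stood at 102, 104 and 107 FPKM in LPS and at 26, 26 and 26.6 FPKM in Hyp. The 2 groups were far apart and tight within. The gene (chr9:116087698-116175363, minus strand) was 4.23-fold lower in Hyp (log2 fold change -2.08 ± 0.033, SE; edgeR adjusted p = 1.17e-08), and 4.27% of the genes tested fell as far. Tgfbr1 (chr4:47353222-47414931, plus strand), the type I kinase that passes the signal to SMADs, stood at 3.95, 3.53 and 3.4 FPKM in LPS and at 4.02, 4.03 and 3.9 FPKM in Hyp. Here the groups overlapped. Its log2 fold change was 0.046, with a 95% interval from -0.10 to 0.19 (edgeR adjusted p = 0.529), so a change as large as that of Tgfbr2 lies outside the interval. The ratio of Tgfbr2 to Tgfbr1 in FPKM was 28.9 ± 2.83 in LPS and 6.58 ± 0.202 in Hyp.

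Among the receptor-activated SMADs, Smad3 fell and Smad2 did not pass the test. Smad3 (chr9:63646767-63757994, minus strand), which binds DNA directly, stood at 21.8, 21.9 and 23.4 FPKM in LPS and at 11.7, 9.99 and 11.3 FPKM in Hyp. All Hyp libraries lay below all LPS libraries. Smad3 was 2.16-fold lower (log2 fold change -1.11 ± 0.066, SE; edgeR adjusted p = 1.86e-06). Smad2, its close relative on chromosome 18, stood at 10.2, 11.4 and 11.2 FPKM in LPS and at 10.8, 10.4 and 10.8 FPKM in Hyp. The ranges overlapped in FPKM, while in CPM the highest Hyp library (55.1) lay just below the lowest LPS library (55.3). The log2 fold change of -0.13 ± 0.056 (SE) had an edgeR adjusted p of 0.0673, which became 0.0127 without LPS replicate 1. The ratio of Smad3 to Smad2 in FPKM was 2.04 ± 0.109 in LPS and 1.03 ± 0.0613 in Hyp.

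Smad4 and Smad7, both also on chromosome 18, showed small falls. Smad4, the shared partner of all receptor-activated SMADs, stood at 26.9, 27.2 and 27.7 FPKM in LPS and at 23.3, 25.3 and 24.2 FPKM in Hyp. The groups did not overlap, and the log2 fold change was -0.26 ± 0.039 (SE; edgeR adjusted p = 0.000469). Smad7, the inhibitory SMAD, stood at 4.39, 3.63 and 4.65 FPKM in LPS and at 3.82, 3.52 and 3.42 FPKM in Hyp. LPS replicate 2 was the low library of its group and lay within the Hyp range in FPKM. In CPM it lay just above the Hyp libraries, at 28.8 against at most 28.6. The log2 fold change of Smad7 was -0.33 ± 0.099 (SE; edgeR adjusted p = 0.017). This call was lost in 7 of 16 alternatives. These were the fits without LPS replicate 3 (adjusted p = 0.0535), without Hyp replicate 2 (adjusted p = 0.0526) and without Hyp replicate 3 (adjusted p = 0.0576), library size alone (log2 fold change -0.24, adjusted p = 0.0548) and the limma fits to FPKM (-0.22 to -0.18, adjusted p from 0.0792 to 0.127). The ratio of Smad7 to Smad4 in FPKM was 0.155 ± 0.0186 in LPS and 0.148 ± 0.0136 in Hyp, a gap within the spread of either group.

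Hyp + M2-Exo and LPS + M2-Exo share no library with the pair above and gave the same comparison in the presence of exosomes. Of the 9 genes 7 were lower and 1 higher, where 73.7% of 13660 genes were called, 36.5% as lower and 37.1% as higher. Tgfb3 stood at 26, 26.7 and 26.1 FPKM in LPS + M2-Exo and at 5.36, 5.09 and 5.52 FPKM in Hyp + M2-Exo, and its log2 fold change was -2.39 ± 0.057 (SE; edgeR adjusted p = 4.95e-08). Tgfbr2 stood at 106, 106 and 103 FPKM against 27, 23.2 and 20.9 FPKM, a log2 fold change of -2.23 ± 0.086. The groups were again far apart for both genes. Tgfb2 had a log2 fold change of -1.48 ± 0.069, Smad3 of -1.28 ± 0.099, Smad4 of -0.53 ± 0.08 and Smad7 of -0.30 ± 0.06, all with edgeR adjusted p-values of 0.00199 or less. These 6 genes were lower in hyperoxia in both pairs of groups. The study's rule again took 2 of the 9, Tgfb3 and Tgfbr2, against 7.2% of all genes.

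The remaining 3 genes differed in their calls between the pairs. Tgfbr1 stood at 3.51, 3.31 and 3.59 FPKM in LPS + M2-Exo and at 3.82, 4.46 and 4.71 FPKM in Hyp + M2-Exo. The groups did not overlap, and the log2 fold change was 0.23 ± 0.085 (SE; edgeR adjusted p = 0.0398). Without any 1 of 5 of the 6 libraries the call was lost, with adjusted p-values of 0.0869, 0.129 and 0.0619 without LPS + M2-Exo replicates 1, 2 and 3 and of 0.0952 and 0.112 without Hyp + M2-Exo replicates 2 and 3. Smad2 had a log2 fold change of -0.17 ± 0.061 (SE; edgeR adjusted p = 0.0364). Its call was lost in 10 of 16 alternatives. These included the fits without LPS + M2-Exo replicate 2 (adjusted p = 0.104) or 3 (adjusted p = 0.0784), without Hyp + M2-Exo replicate 1 or 2 (adjusted p = 0.111 in each case), DESeq2 (adjusted p = 0.0613) and no filter (adjusted p = 0.0864). With library size alone the log2 fold change was -0.075 (adjusted p = 0.293) and in the limma fits to FPKM -0.074 to -0.069 (adjusted p from 0.266 to 0.307). Tgfb1 had a log2 fold change of -0.11 ± 0.098 (SE; edgeR adjusted p = 0.35), which became -0.22 with an adjusted p of 0.0178 without Hyp + M2-Exo replicate 1. The interaction of the fit to all 12 libraries, which tests whether the 2 pairs differ, called none of the 9 genes.

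**Figure D3:**
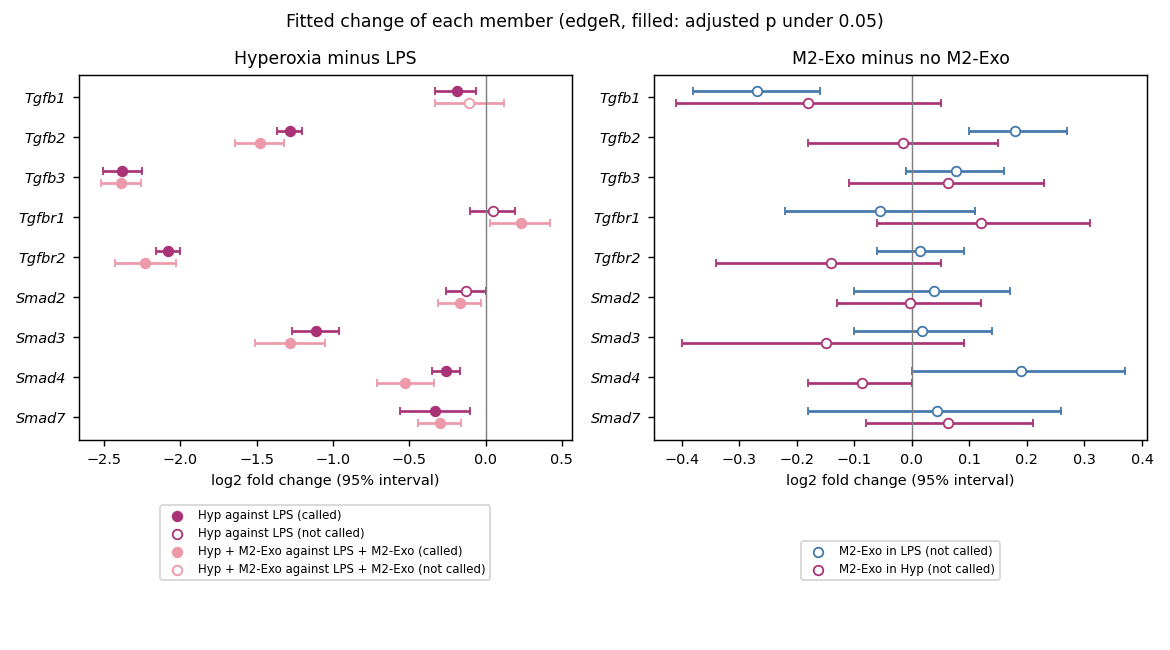
Fitted log2 fold changes (horizontal axis) with 95% intervals for each gene, hyperoxia minus LPS on the left and M2-Exo minus no M2-Exo on the right, with different horizontal scales. Filled points passed an edgeR adjusted p of 0.05. On the left Tgfb3 and Tgfbr2 lie below -2 in both pairs, and on the right no point is filled.

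The comparison within each injury addressed what M2-Exo changed. In the LPS libraries, 0 of the 9 genes were called, where 0.187% of 13353 genes were. At an unadjusted p under 0.05 there were 3, Tgfb1, Tgfb2 and Smad4, against 11.1% of all genes, and DESeq2 and limma called 0. Tgfb1 stood at 8.26, 8.53 and 8.42 FPKM without and at 6.91, 6.83 and 7.12 FPKM with M2-Exo. The groups did not overlap, and the log2 fold change was -0.27, with a 95% interval from -0.38 to -0.16 (edgeR adjusted p = 0.138). Tgfb2 showed values in the opposite order, with 21.3, 20.5 and 21.8 FPKM without and 23.6, 23.8 and 24.4 FPKM with M2-Exo. These groups did not overlap either, and the log2 fold change was 0.18, with a 95% interval from 0.10 to 0.27 (edgeR adjusted p = 0.159). Over the alternatives the adjusted p ranged from 0.0924 to 0.391 for Tgfb1 and from 0.0658 to 0.435 for Tgfb2, the lowest in each case with DESeq2. Neither gene passed the correction.

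Smad4 stood at 26.9, 27.2 and 27.7 FPKM in LPS and at 35.3, 27.7 and 29.7 FPKM in LPS + M2-Exo. LPS + M2-Exo replicate 1 was the high library. The log2 fold change of 0.19 (edgeR adjusted p = 0.444) was 0.081 without it. Tgfb3 had 24.8 to 25.3 FPKM without and 26 to 26.7 FPKM with M2-Exo, which did not overlap (log2 fold change 0.077, edgeR adjusted p = 0.511). In all, 4 of the 9 genes did not overlap between these groups in CPM (counts scaled to the library's size), where 17.2% of all genes did not. Tgfbr1, Tgfbr2, Smad2, Smad3 and Smad7 overlapped, with log2 fold changes from -0.056 to 0.043 and edgeR adjusted p-values from 0.836 to 0.939. For Tgfbr2 the 95% interval ran from -0.06 to 0.09 and for Smad3 from -0.10 to 0.14.

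In the Hyp libraries, 0 of the 9 genes were called, where 0.101% of 13815 genes were. None reached an unadjusted p under 0.05, against 8.48% of all genes, and DESeq2 and limma called 0. Tgfbr2 stood at 26, 26 and 26.6 FPKM without and at 27, 23.2 and 20.9 FPKM with M2-Exo. The treated libraries spread on both sides of the untreated ones. Hyp + M2-Exo replicate 1 was the highest of its group for Tgfbr2, for Smad3 (11.5, 8.83 and 9.32 FPKM) and for Tgfb1 (7.94, 6.56 and 6.11 FPKM). Without it the log2 fold changes were -0.25 for Tgfbr2, -0.28 for Smad3 and -0.30 for Tgfb1, against -0.14, -0.15 and -0.18 with it, and the edgeR adjusted p-values of 0.219, 0.27 and 0.245 stayed above the threshold. Smad4 was the gene whose groups did not overlap, with 23.3, 25.3 and 24.2 FPKM without and 22.7, 22.8 and 23.1 FPKM with M2-Exo (log2 fold change -0.087, edgeR adjusted p = 0.596), against 16% of all genes that did not overlap. For the other genes the log2 fold changes lay between -0.016 and 0.12.

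Whether M2-Exo acted differently after LPS and after hyperoxia was tested as the interaction in the 12 libraries. None of the 9 genes was called by edgeR, DESeq2 or limma, where 0.0352% of 14187 genes were called by edgeR. At an unadjusted p under 0.05 there were 2, Smad4 and Tgfb2, against 9.78% of all genes. For Smad4 the effect in Hyp minus that in LPS was -0.27 on the log2 scale, with a 95% interval from -0.48 to -0.06 (edgeR adjusted p = 0.41). For Tgfb2 it was -0.19, from -0.37 to -0.01 (edgeR adjusted p = 0.481).

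The genes that surround these 9 were described in 6 lists of 97 genes, written by hand from textbook roles. In the latency and activation list, 11 of 14 tested genes were lower in Hyp than in LPS and 2 higher, with a median log2 fold change of -1.14, against 37.8% lower, 38% higher and a median of 0.009 over all genes. Ltbp3, a latent TGF-beta binding protein, stood at 91.4 ± 2.62 FPKM (SD, n = 3) in LPS and 22.3 ± 1.3 in Hyp (log2 fold change -2.13, edgeR adjusted p = 2.82e-08). Its relative Ltbp4 fell by 2.40 and Fbn2, a fibrillin of the matrix, by 2.47 on the log2 scale. Fbn2 stood at 0.869 FPKM in LPS and 0.166 in Hyp. The symbol Ltbp4 has 2 entries in the table, and the one with more counts was used. The integrin genes Itgb5, Itgav and Itgb1, whose products can bind latent TGF-beta, fell by 1.43, 0.47 and 0.42. The 2 higher genes were Thbs1, by 0.36 (33.6 FPKM in LPS and 46.1 in Hyp), and Ltbp1, by 2.16. Ltbp1 had 3 to 8 counts per library in LPS and 16 to 37 in Hyp. With M2-Exo present, 11 of 14 were lower and 1 higher, Nrros among the lower ones with a log2 fold change of -1.81.

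In the list of 4 co-receptors, which includes the pseudoreceptor Bambi, 2 were lower and 0 higher, against 37.8% and 38% of all genes, with a median log2 fold change of -0.33. These 2 were the co-receptor Tgfbr3, with 0.931 ± 0.0478 FPKM in LPS and 0.607 ± 0.0508 in Hyp (log2 fold change -0.71), and the type I receptor Acvrl1 (-2.37), which had no more than 40 counts in any library of these groups. Bambi had a log2 fold change of 0.035 (edgeR adjusted p = 0.788). With M2-Exo present the counts were again 2 lower and 0 higher.

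The activin branch, which also signals through SMAD2 and SMAD3, had 4 of 11 tested genes higher and 4 lower in Hyp, shares near the 38% and 37.8% of all genes, and a median log2 fold change of -0.08. Inhba, the activin A subunit, stood at 18.6 ± 2.43 FPKM in LPS and 50.8 ± 0.57 in Hyp (log2 fold change 1.36, edgeR adjusted p = 2.8e-06), and Fst, the activin antagonist follistatin, rose by 1.58. Inhbb, the activin B subunit, fell by 2.17. The receptor genes Acvr2b and Acvr1b fell by 1.89 and 0.41, Acvr2a rose by 0.46, and Gdf11 had a log2 fold change of -0.072 (edgeR adjusted p = 0.24). With M2-Exo present 4 of 10 were higher and 3 lower. Gdf15, placed in this list by hand and not shown here to use SMAD2 or SMAD3, was among the higher ones at 1.40. It had 8 to 11 counts per library in LPS + M2-Exo.

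In the BMP branch, which runs through other SMADs, 9 of 13 tested genes were lower and 2 higher, against 37.8% and 38% of all genes, with a median log2 fold change of -0.37. Bmp2 stood at 11 ± 1.41 FPKM in LPS and 0.917 ± 0.0879 in Hyp (log2 fold change -3.67, edgeR adjusted p = 1.27e-07). Bmp4 fell by 1.24, and the receptor genes Bmpr1a, Bmpr2 and Acvr1 fell by 0.89, 0.77 and 0.59. Smad6, the inhibitory SMAD of this branch, fell by 1.64, and the target gene Id3 by 0.37. The 2 higher genes were the target gene Id2, by 0.97, and Smad1, by 0.32. A further target gene, Id1, was not called (log2 fold change 0.18, edgeR adjusted p = 0.106). With M2-Exo present 9 were again lower and 2 higher, Id2 among the latter at 1.35.

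Among 19 SMAD regulators 7 were lower and 6 higher, shares near the 37.8% and 38% of all genes, with a median log2 fold change of 0.04. Dab2, an adaptor that links receptors to SMADs, fell by 1.93, and Tgif1, a SMAD corepressor, by 0.90. Usp9x, a deubiquitinase, fell by 0.39, Fkbp1a, which binds the type I receptor, by 0.26 and Ppm1a, a SMAD phosphatase, by 0.23. Usp15, another deubiquitinase, rose by 0.71 and Strap, which aids SMAD7 at the receptor, by 0.61. With M2-Exo present 5 were lower and 5 higher, with log2 fold changes of -1.22 for Ski, a SMAD corepressor, and 0.33 for Ep300, a coactivator. Of the genes that TGF-beta is known to regulate, 15 of 27 tested were lower and 11 higher, against 37.8% and 38% of all genes, with a median of -0.19. Cdkn1a, a cell cycle inhibitor, stood at 8.19 ± 0.106 FPKM in LPS and 66 ± 1.92 in Hyp (log2 fold change 2.92, edgeR adjusted p = 8.02e-09), while Cdkn2b, another such inhibitor, fell by 1.87. Ccn1 and Junb, the 2 most abundant of the list, rose by 1.23 and 1.12, Gadd45b, a stress gene, by 1.03 and Klf10, an early response gene, by 0.72. With M2-Exo present 13 were lower, fibronectin Fn1 among them with -0.78, and 10 higher. Many pathways besides TGF-beta regulate these genes, and no uninjured level was measured.

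**Figure D4:**
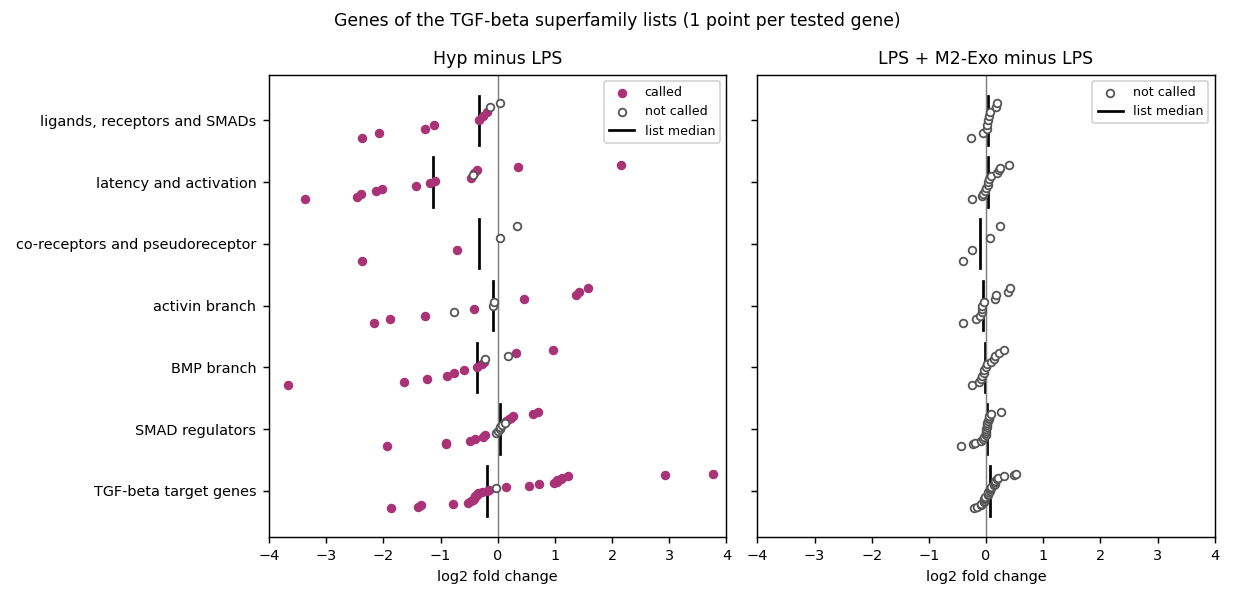
Log2 fold change (horizontal axis, the same in both panels) of every tested gene of each list, Hyp minus LPS on the left and LPS + M2-Exo minus LPS on the right. Filled points passed an edgeR adjusted p of 0.05, and vertical bars are list medians. The latency and activation list sits lowest on the left with a median of -1.14, and no point is filled on the right.

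In none of the 6 lists was a gene called by edgeR for M2-Exo in LPS, for M2-Exo in Hyp or for the interaction. At an unadjusted p under 0.05 there were between 0 and 5 genes per list in these 3 comparisons, where 11.1%, 8.48% and 9.78% of all genes were. The count of 5 was reached by 5 of 14 tested latency and activation genes in the interaction. It was also reached by 5 of 25 TGF-beta target genes for M2-Exo in LPS and 5 of 27 in the interaction. DESeq2 called at most 1 gene in a list.

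By likeness of level over the 12 libraries, measured as the root mean square difference of log2 CPM after centring, the genes nearest to Tgfb3 among 14186 others were Podxl (0.073), Slc39a10 (0.076) and 9930014A18Rik (0.088). Those nearest to Tgfbr2 were Fzd2 (0.046), Lrp1 (0.062) and Ltbp3 (0.065). Podxl stood at 123 FPKM in LPS and 26.9 in Hyp, and Fzd2 at 40.2 and 9.56. Ltbp3 is also in the latency list above. The likeness rests mostly on the gap between the injuries, which all 12 points share.

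Marker lists of cell types were also compared between the injuries, and they cannot show which cells the RNA came from. The 12 macrophage markers summed to 158 to 181 FPKM in LPS, 125 to 142 in LPS + M2-Exo, 51.3 to 53.5 in Hyp and 39.6 to 59.3 in Hyp + M2-Exo, and of 9 tested, 8 were lower in Hyp than in LPS and 0 higher. Lyz2 was the largest part of this sum, at 78.7 FPKM in LPS and 21.1 in Hyp, followed by Cd14 at 28.7 and 14.8. Chil3 was at 0 in all 4 groups, Arg1 and Siglecf were near 0, and Mrc1 stood at no more than 0.159 FPKM as a group mean. For M2-Exo in LPS, where Tgfb1 had its lower values, 7 of 9 had an unadjusted p under 0.05, against 11.1% of all genes, with a median log2 fold change of -0.34 and 0 called. The 8 fibroblast markers, of which Dcn made up most, summed to 368 to 375 FPKM in LPS and 159 to 173 in Hyp, and 4 of 6 tested were lower. The 10 AT II markers summed to 102 to 105 FPKM in LPS and 48.2 to 52.5 in Hyp, with 5 of 7 tested lower and 2 higher, and the 5 epithelial markers, nearly all of it Krt8, to 85.5 to 89.8 and 80.1 to 85.8, with 3 of 3 tested lower. For each of these marker lists in Hyp against LPS, the shares over all genes tested were 37.8% lower and 38% higher. The part of these markers in the results for the 9 genes was not tested. Mitochondrially encoded genes took 3.62% to 4.17% of counts in the LPS-injured libraries and 2.62% to 2.92% in the hyperoxia libraries, and their part was not tested either.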

How the data were processed

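The authors deposited, for 34745 genes in 12 libraries, whole read counts per gene, not normalized, and FPKM, which follow from counts, gene length and library total. Per the labels and methods, TruSeq poly(A) libraries were sequenced on a NovaSeq, filtered with Seqtk and mapped with HISAT2 2.0.4 to GRCm38, and StringTie 1.3.0 and edgeR were used. The labels name an RNA extraction kit and the methods Trizol. Unused columns per library numbered 0.

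The counts were tested with edgeR 4.0.16 under R 4.3.3 (filterByExpr, TMM, quasi-likelihood F test, Benjamini-Hochberg over all genes tested), on the 6 libraries of each comparison and all 12 for the interaction. CPM values used TMM factors over 12 libraries. The script was tested on simulated data. Levels are FPKM, mean ± SD, and fold changes are from counts. Alternatives used limma 3.58.1, DESeq2 1.42.0, other scalings and filters, a replicate block and each library left out.

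The 9 genes, the lists, tests and alternatives were chosen with earlier results of these data known. Of each list, the called genes (the 6 with the smallest p) and the 2 with the highest mean FPKM are named. In the latency and BMP lists, the genes called as higher in Hyp than in LPS are named as well, and also Id1. Likeness was computed for the 2 members with the widest range between groups. Promoter sequences are from a RefSeq GRCm38.p6 table, in which 5 genes outside chromosome 18 were matched.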

Additional observations from a re-analysis of the deposited data

How the results depend on the processing

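Tgfb2, Tgfb3, Tgfbr2, Smad3 and Smad4 kept their direction and their side of the threshold in all 16 alternatives of both comparisons of hyperoxia with LPS. Scaling by library size alone moved the median log2 fold change of all genes in Hyp against LPS from 0.009 to 0.099. With it 5 of the 9 genes were called in Hyp against LPS and 7 in the pair with M2-Exo. With each library left out in turn, between 5 and 8 were called in Hyp against LPS and between 6 and 8 with M2-Exo. By the study's own rule, which sets a fold limit on unadjusted p-values, there were 2 in each, Tgfb3 and Tgfbr2. In the M2-Exo comparisons, where the study applied it, no member reached the fold limit. The largest log2 fold change there was -0.27, for Tgfb1 in LPS. For M2-Exo in LPS, in Hyp and for the interaction, 0 of the 9 were called in every alternative with an adjusted p, and at an unadjusted p under 0.05 there were 3, 0 and 2.

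Same-numbered libraries did not deviate together (correlations from -0.018 to 0.05), so no pairing by number was seen. The sources do not say whether the numbers pair the libraries, and these correlations cannot exclude it. With the replicate number as a block, 7 and 8 of the 9 genes were called between the injuries and 0 in the other comparisons, and for M2-Exo in LPS the adjusted p of Tgfb1 was 0.355 and of Tgfb2 0.358. Over all genes, 25 were called for M2-Exo in LPS, 6 with the block and 125 with DESeq2. For M2-Exo in Hyp there were 14, 2 with all 12 libraries in the fit and 37 with DESeq2. For the interaction there were 5, 3 with the block and 67 with DESeq2.

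In CPM, which do not correct for length, the median ratio over 12 libraries was 3.07 for Tgfb2 to Tgfb1, 1.14 for Tgfb3 to Tgfb1, 8.62 for Tgfbr2 to Tgfbr1, 1.66 for Smad3 to Smad2 and 0.218 for Smad7 to Smad4. The first 4 of these medians fall between the injuries. By group, the mean in CPM was 4.01 in LPS and 1.89 in Hyp for the first, 1.77 and 0.387 for the second, 15.1 and 3.45 for the third and 2.23 and 1.13 for the fourth. Reversed signs were limited to log2 fold changes that were not called. Smad2 for M2-Exo in Hyp was 0.0018 with all 12 libraries in the fit, and Tgfb3 in the interaction was 0.00032 without a filter. With each library left out, M2-Exo in LPS gave -0.10 to 0.0063 for Tgfbr1, -0.0046 to 0.032 for Tgfbr2, -0.011 to 0.069 for Smad2, -0.026 to 0.053 for Smad3 and -0.06 to 0.12 for Smad7. M2-Exo in Hyp gave -0.062 to 0.062 for Tgfb2 and -0.044 to 0.027 for Smad2. The interaction gave -0.034 to 0.17 for Tgfb1, -0.038 to 0.036 for Tgfb3, -0.074 to 0.014 for Smad2 and -0.055 to 0.13 for Smad7. The cause was not tested. With 3 libraries a group, small changes can be missed, and the part of depth in this was not tested.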
